A study of Mus musculus with 44 samples.

Results

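The contractile apparatus of muscle was followed through 32 genes measured in the gastric corpus of mice: 16 genes of skeletal muscle and 16 genes of smooth muscle. They were taken by name from a table of 31414 gene names, of which 14893 had enough counts to be tested. All 16 smooth muscle genes and 7 of the 16 skeletal muscle genes were among the genes tested. The skeletal muscle genes were Acta1, Ckm, Myh1, Myh2, Myh4, Myl1, Mylpf, Tnnc2, Tnni2, Tnnt3, Tnnt1, Actn2, Actn3, Ttn, Neb and Mb. The smooth muscle genes were Acta2, Actg2, Myh11, Tagln, Cnn1, Des, Mylk, Myl9, Smtn, Lmod1, Synpo2, Synm, Tpm1, Tpm2, Cald1 and Pgm5.

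Smooth muscle forms the layers of the stomach wall (muscularis mucosae and muscularis propria). It contracts when calcium activates myosin light chain kinase, encoded by Mylk, which phosphorylates the regulatory light chain, encoded by Myl9, of the smooth muscle myosin Myh11 that pulls on alpha and gamma actin (Acta2 and Actg2). Skeletal muscle instead is switched on through troponin on the thin filament, and its fast fibres use their own actin, myosins and troponins. Skeletal muscle is not a normal layer of the corpus wall, while the oesophagus of the mouse contains it.

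RNA was sequenced from corpus samples of BalbC mice aged 13 months in 4 groups. Wild-type mice received the vehicle polyethylene glycol (WT/PEG, n = 11 libraries) or the gastrin receptor antagonist netazepide, also called YF476, in that vehicle (WT/NTZ, n = 9). Mice homozygous for a knockout of Atp4b, the beta subunit of the gastric H+/K+ATPase, received the same vehicle (KO/PEG, n = 13) or netazepide (KO/NTZ, n = 11). The knockout is germline, so every cell of the KO mice carries it, and the model is known for low gastric acid and high gastrin. All animals were female and all 4 groups received the vehicle by injection under the skin. The comparisons asked how contractile gene expression differed between genotypes, and whether blocking the gastrin receptor moved it.

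Libraries held 6065084 to 21945124 estimated counts, and levels are given as CPM, counts relative to a common library size after scaling. At these depths 3 counts, taken as the floor of detection, correspond to 0.137 to 0.495 CPM. These limits cover counting error only. Atp4b itself was between 2140 and 5738 CPM in the wild-type libraries and between 2.28 and 40.6 CPM in the KO libraries, so the libraries matched their genotype labels. Libraries are named by their titles, which give genotype, animal number and treatment (YF for netazepide). WT_172_WT_PEG_1 and WT_172_WT_PEG_2 share an animal number but differed by more than sampling noise, and number 110 occurred in both KO groups. The study describes fewer KO/PEG animals than the 13 KO/PEG libraries used here, so some of these may share an animal. The labels do not tell which, each library was counted as 1 sample, and p-values measure the spread between these samples, which may be too small for KO/PEG. In whole tissue, fewer muscle cells and less of a transcript per muscle cell cannot be told apart.

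Per length of transcript, the most abundant smooth muscle genes in WT/PEG mice were Tpm1 (mean 566 TPM, a level relative to transcript length and library total), Tpm2 (524 TPM), Acta2 (490 TPM), Myl9 (458 TPM), Tagln (451 TPM) and Actg2 (432 TPM). Lmod1, which nucleates actin filaments in smooth muscle, had the lowest mean level on the same scale (15.04 TPM). The highest skeletal muscle genes in the same group were Tnni2 (11.5 TPM) and Ckm (10.7 TPM), both below every smooth muscle gene. The defining genes of fast skeletal fibres were at the floor there, with mean levels of 0.0057 TPM for Myh1 and 0.0169 TPM for Tnnc2.

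Smooth muscle genes were lower in KO/PEG than in WT/PEG mice. Of the 16 genes, 15 fell (adjusted p under 0.05, edgeR quasi-likelihood test with Benjamini-Hochberg adjustment over all genes tested) and none rose. This count stands against a background in which 74.7% of all genes tested differed between the groups, 37.5% of all genes by rising and 37.2% by falling. The median log2 fold change of the smooth muscle genes was -0.78, beside -0.003 over all genes tested. The KO/PEG libraries summed to 2067 to 6280 CPM over the 16 genes and the WT/PEG libraries to 4641 to 7462 CPM, so the sums overlapped.

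Cald1, Myh11 and Mylk had the largest log2 fold changes among the smooth muscle genes. Myh11, the smooth muscle myosin heavy chain (chr16:14194535-14291372, GRCm38), had a lowest, median and highest level of 406, 700.0 and 824 CPM in WT/PEG mice and of 60.1, 170.5 and 627 CPM in KO/PEG mice. All 13 KO/PEG libraries were below the WT/PEG median and 12 were below every WT/PEG library. The log2 fold change was -1.66 ± 0.26 (SE), a level 3.16-fold lower (edgeR quasi-likelihood test, adjusted p = 4.25e-07). Cald1 (chr6:34598500-34775473), encoding caldesmon, which restrains myosin on actin, ran from 138 to 299 CPM (median 210.9) in WT/PEG mice and from 24.7 to 234 CPM (median 49.7) in KO/PEG mice. It fell by 1.67 ± 0.24 on the log2 scale (edgeR, adjusted p = 7.54e-08). Mylk, the kinase of the light chain, had a median of 354 CPM in WT/PEG mice and of 106 CPM in KO/PEG mice, a log2 fold change of -1.49 ± 0.24 (edgeR, adjusted p = 9.42e-07). The light chain itself, Myl9, fell from a median of 396 CPM (340 to 542) to 258.5 CPM (152 to 417.5), with a log2 fold change of -0.65.

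Myl9 was one of 3 contractile genes whose promoter held a CArG box, the binding motif of serum response factor (SRF), which drives contractile genes in muscle. Promoters of 250 bases before to 50 bases after the start were matched for 25 of the 32 genes (RefSeq, GRCm38.p6), and the motif, which reads the same way on both strands, occurred in 1.63% of all 32851 promoters of this length. The Myl9 promoter (chr2:156775214-156775513, plus strand) is shown because its motif, in capitals, began 161 bases before the start:
Myl9 promoter: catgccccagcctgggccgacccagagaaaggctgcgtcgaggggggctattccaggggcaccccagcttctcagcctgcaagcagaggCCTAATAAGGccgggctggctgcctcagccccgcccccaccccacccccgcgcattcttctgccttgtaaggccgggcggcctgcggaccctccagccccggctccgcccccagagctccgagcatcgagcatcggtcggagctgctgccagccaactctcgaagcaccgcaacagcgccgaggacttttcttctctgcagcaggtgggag
The other promoters with the motif were those of the skeletal muscle genes Acta1 and Myh4. No match in such a window says nothing of motifs elsewhere.

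Cytoskeletal anchors of the smooth muscle cell fell as well. Pgm5, encoding aciculin of the dense plaques, ran from 45.4 to 74.5 CPM in WT/PEG mice and from 13.7 to 53.6 CPM in KO/PEG mice, with a log2 fold change of -1.32 ± 0.16 (edgeR, adjusted p = 1.40e-09). Lmod1 ran from 41.8 to 73.2 CPM and from 9.22 to 44.4 CPM in these groups (log2 fold change -1.31 ± 0.17, adjusted p = 1.54e-08 in edgeR). For both genes all 13 KO/PEG libraries were below the WT/PEG median and 12 were below the whole WT/PEG range. The actin-binding Synpo2 and the intermediate filament gene Synm had log2 fold changes of -1.46 ± 0.26 and -1.18 ± 0.21.

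The genes of actin, tropomyosin, calponin and smoothelin had smaller log2 fold changes. Acta2 (chr19:34241090-34255590), the alpha actin of smooth muscle, had a lowest, median and highest level of 727, 896 and 1079 CPM in WT/PEG mice and of 316, 480.1 and 758 CPM in KO/PEG mice. Of the 13 KO/PEG libraries, 11 were below every WT/PEG library, and the log2 fold change was -0.81 ± 0.14 (edgeR, adjusted p = 2.35e-06). Smtn, a smoothelin that marks contractile smooth muscle, had a log2 fold change of -0.63 ± 0.14 (adjusted p = 0.000132) and Tpm1, a tropomyosin that lies along actin, of -0.55 ± 0.12 (adjusted p = 9.93e-05), both in edgeR. Cnn1, Actg2 and Tpm2 had log2 fold changes of -0.74, -0.61 and -0.50. Actg2 no longer passed when every gene with a count was kept (adjusted p = 0.0632 in edgeR) or when the comparison was kept within one range of animal numbers, below 100 or from 100 up (here from 100 up, -0.57, adjusted p = 0.124).

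Des, encoding desmin, ran from 305 to 585 CPM (median 439) in WT/PEG mice and from 157 to 623 CPM (median 274) in KO/PEG mice, so the ranges overlapped. Its log2 fold change was -0.46 ± 0.20 (edgeR, adjusted p = 0.0365). Des no longer passed the test when any 1 of 12 libraries was left out (WT_129_WT_PEG, WT_149_WT_PEG, WT_172_WT_PEG_1, WT_172_WT_PEG_2 and WT_173_WT_PEG, and KO_31_KO_PEG, KO_32_KO_PEG, KO_45_KO_PEG, KO_53_KO_PEG, KO_109_KO_PEG, KO_137_KO_PEG and KO_144_KO_PEG), with log2 fold changes of -0.44 to -0.40 and a highest adjusted p of 0.0771 in edgeR. Under 10 other settings of the processing it passed in 4 and not in the other 6, which gave log2 fold changes of -0.57 to -0.38 and adjusted p from 0.0502 to 0.229 in edgeR. Tagln (chr9:45929619-45936058), encoding the actin-bundling transgelin, was the only smooth muscle gene of the 16 that did not pass in the full set of libraries. It ran from 503 to 849.6 CPM (median 654) in WT/PEG mice and from 322 to 981 CPM (median 502) in KO/PEG mice, with a log2 fold change of -0.18 ± 0.15 (edgeR, adjusted p = 0.288).

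**Figure D1:**
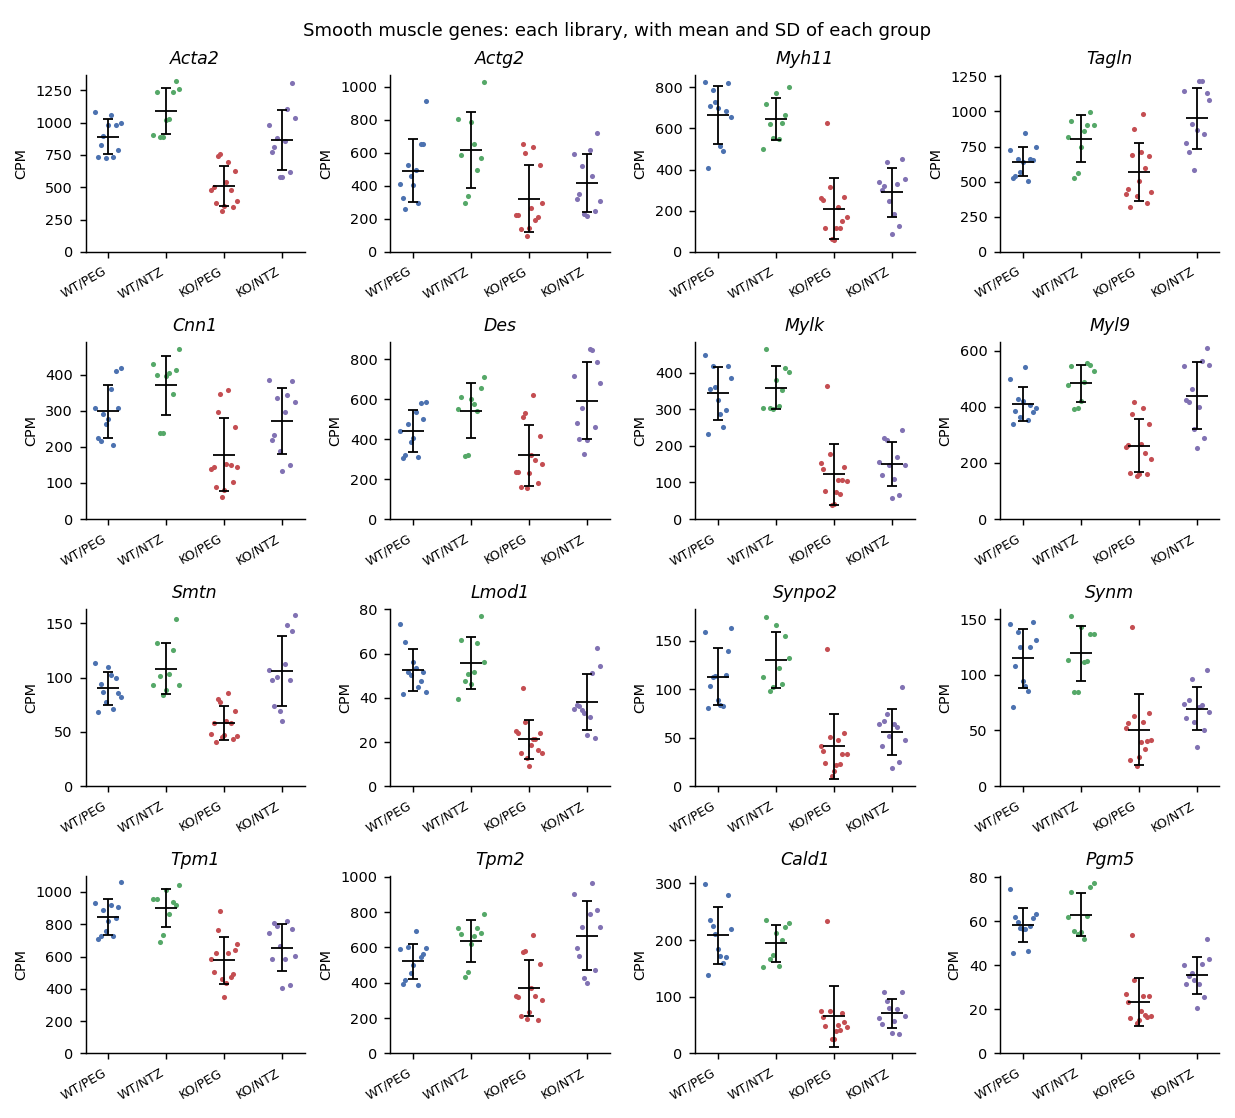
Levels of the 16 smooth muscle genes in each library, 1 panel a gene, in CPM on linear axes that start at 0, with points for libraries and the mean and SD of each of the 4 groups. In the Myh11, Mylk and Cald1 panels the KO/PEG points lie below all WT/PEG points except for KO_46_KO_PEG, and in the Tagln panel the KO/PEG range of 322 to 981 CPM spans the WT/PEG range.

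One library stood apart among the KO/PEG mice for the long smooth muscle transcripts. KO_46_KO_PEG held the highest KO/PEG level of Myh11 (627 CPM), Mylk (363 CPM), Cald1 (234 CPM), Synm (142.6 CPM) and Synpo2 (142 CPM). Without it the log2 fold changes between KO/PEG and WT/PEG were -1.92 for Myh11, -2.02 for Cald1, -1.74 for Mylk, -1.41 for Synm and -1.79 for Synpo2, and all 5 still passed the test.

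The size of the fall followed the length of the transcript. Over the 16 smooth muscle genes, the correlation of log2 fold change with log2 transcript length was -0.81 (Pearson's r, n = 16 genes; Spearman's rho -0.75), as a description, since the genes share libraries. The 5 smooth muscle genes of 1 to 2 kb had a median log2 fold change of -0.55, the 6 genes of 2 to 4 kb one of -0.78 and the 5 genes over 4 kb one of -1.49. The same order held over all genes tested, with medians of 0.44, -0.07 and -0.55 in these length classes and of 0.95 for genes under 1 kb. In each class the smooth muscle median was thus lower than that of all genes.

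**Figure D2:**
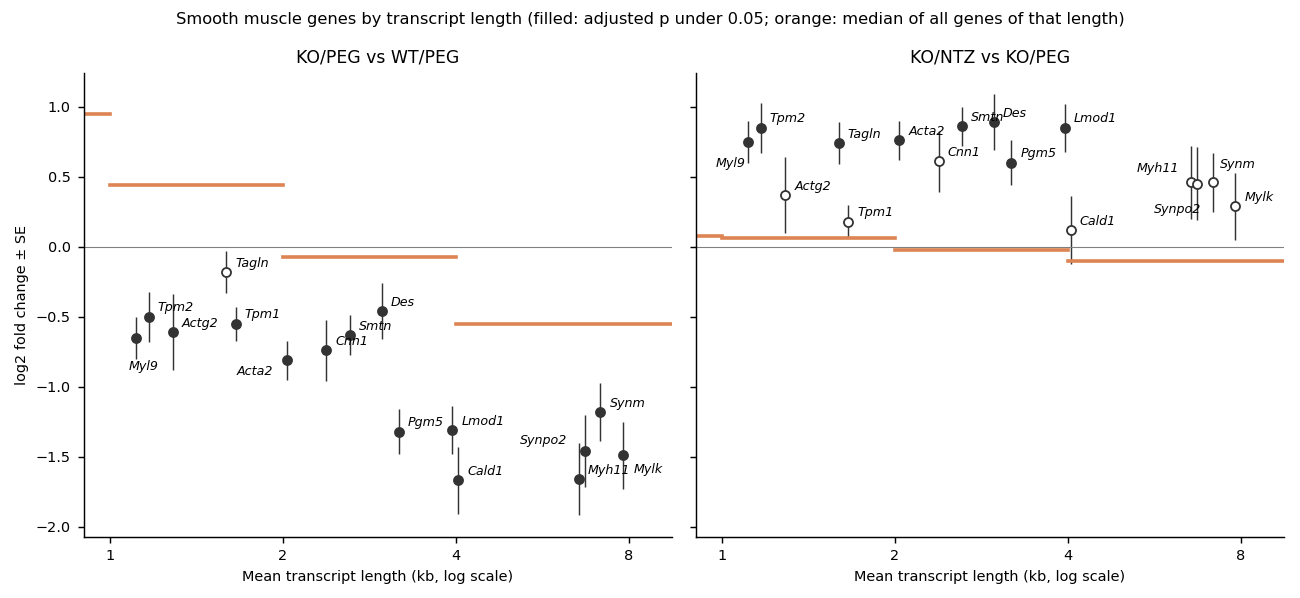
Log2 fold change with its SE of the 16 smooth muscle genes against mean transcript length in kb (log axis), for KO/PEG against WT/PEG and for KO/NTZ against KO/PEG. Filled points passed the test and orange marks give the median of all genes of that length. In the genotype comparison the points lie lower with length, from Tagln at -0.18 to Cald1 at -1.67, while in the drug comparison all 16 lie above 0.

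The dependence on length was a property of whole libraries. The slope of log2 CPM on log2 transcript length, over all genes and relative to the mean library, was 0.122 to 0.350 per doubling of length in WT/PEG libraries, 0.0775 to 0.268 in WT/NTZ, -0.373 to 0.166 in KO/PEG and -0.336 to -0.069 in KO/NTZ. Only KO_46_KO_PEG, the library with the high Myh11, Mylk and Cald1, had a positive slope among the KO libraries. Genotype and slope were therefore almost the same split of the libraries, and their parts in the fall of the smooth muscle genes cannot be told apart. With the slope as a covariate, 2 smooth muscle genes passed in KO/PEG against WT/PEG, namely Acta2 (log2 fold change -0.68, adjusted p = 0.0342) and Smtn (-0.69, adjusted p = 0.0367) in edgeR, beside 32.8% of all genes, while Myh11 was at -0.02 and Cald1 at -0.08.

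**Figure D3:**
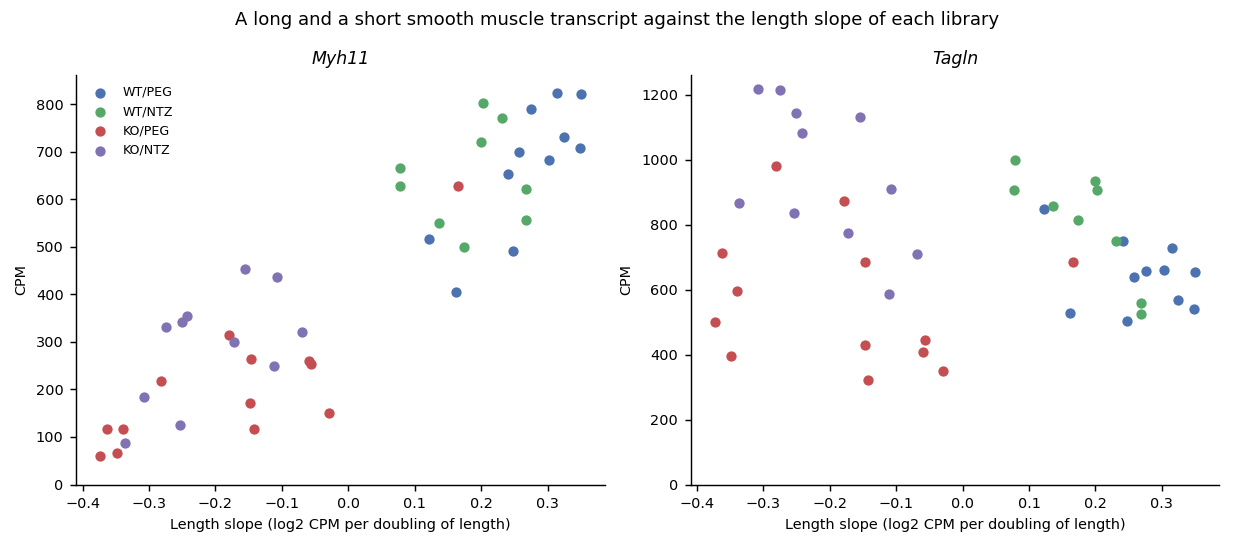
Levels of Myh11 and Tagln in CPM against the length slope of each of the 44 libraries (log2 CPM per doubling of transcript length), coloured by group. Wild-type libraries lie at slopes above 0 and all KO libraries but KO_46_KO_PEG below 0, with Myh11 reaching 60.1 CPM at negative slopes and Tagln between 322 and 1218 CPM over all slopes.

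The proportions within pairs of smooth muscle genes are given on the TPM scale as a description, without a test. The ratio of Myh11 to Tagln averaged 0.255 ± 0.0549 (SD, n = 11) in WT/PEG, 0.202 ± 0.0491 (n = 9) in WT/NTZ, 0.0922 ± 0.0548 (n = 13) in KO/PEG and 0.0761 ± 0.0320 (n = 11) in KO/NTZ mice. The ratio of the kinase Mylk to its substrate Myl9 averaged 0.108, 0.0998, 0.0630 and 0.0485 in the same order. In both pairs the numerator is the longer transcript, with 6549 bases for Myh11 against 1595 for Tagln and 7824 for Mylk against 1109 for Myl9.

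Netazepide in KO mice was accompanied by a rise of 8 of the 16 smooth muscle genes. None fell in KO/NTZ against KO/PEG (edgeR quasi-likelihood test), beside 5.57% of all genes that passed in either direction, 2.97% that rose and 2.6% that fell. All 16 log2 fold changes were above 0, with a median of 0.61 beside -0.011 over all genes. The summed level of the 16 genes was 3594 to 7780 CPM in KO/NTZ libraries and 2067 to 6280 CPM in KO/PEG libraries.

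Smtn rose from a median of 57.8 CPM (40.4 to 85.4) in KO/PEG to 100.1 CPM (60.1 to 157) in KO/NTZ mice (log2 fold change 0.86 ± 0.14, adjusted p = 9.63e-05 in edgeR). Acta2 in KO/NTZ mice had a lowest, median and highest level of 577, 858 and 1304 CPM, and rose by 0.76 ± 0.14 on the log2 scale (edgeR, adjusted p = 0.000446). For both genes all 11 KO/NTZ libraries were above the KO/PEG median and 8 were above every KO/PEG library. Des ran from 326 to 854 CPM (median 555) in KO/NTZ mice and rose by 0.89 ± 0.20 on the log2 scale (edgeR, adjusted p = 0.00479). Tagln ran from 586 to 1218 CPM (median 910.4) and rose by 0.74 ± 0.15 on the log2 scale (edgeR, adjusted p = 0.00189), whereas it had not passed the test in KO/PEG against WT/PEG. The other 4 genes that rose were Lmod1 (0.85), Tpm2 (0.85), Myl9 (0.75) and Pgm5 (0.60). Within one range of animal numbers Lmod1 (0.56, adjusted p = 0.0788) and Pgm5 (0.33, adjusted p = 0.215) no longer passed in edgeR, nor did Pgm5 when the wild-type groups were left out of the fit (0.59, adjusted p = 0.124).

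Genes of the long thick filament and anchor transcripts did not pass the test in this comparison. Myh11 ran from 86.5 to 453 CPM (median 321) in KO/NTZ mice, inside the KO/PEG range, with a log2 fold change of 0.46 ± 0.26 (edgeR, adjusted p = 0.25). Leaving out KO_46_KO_PEG gave 0.72 for Myh11, which also did not pass. Mylk was at 0.29, Cald1 at 0.12 and Tpm1 at 0.18. Of the smooth muscle genes, 3 of 5 of 1 to 2 kb rose, 5 of 6 of 2 to 4 kb and 0 of 5 over 4 kb. Medians over all genes in these length classes were 0.06, -0.02 and -0.10. With the length slope as a covariate 12 of the 16 genes rose, beside 11.4% of all genes that passed, and Myh11 was among them with a log2 fold change of 0.72 (edgeR, adjusted p = 0.0106).

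In wild-type mice no smooth muscle gene passed the test for netazepide. In WT/NTZ against WT/PEG, 0 of 16 had an adjusted p under 0.05 in edgeR, 0 had an unadjusted p under 0.05, DESeq2 called 0, and 1.03% of all genes passed, 1.02% rising and 0.00671% falling. The log2 fold changes ran from -0.10 (Cald1) to 0.33 (Actg2 and Tagln), with a median of 0.22. Acta2 ran from 887 to 1321 CPM (median 1030) in WT/NTZ mice, with a log2 fold change of 0.29 ± 0.15, Myh11 from 499 to 801 CPM (median 628.5) at -0.04 ± 0.28, and Des from 318 to 711 CPM (median 576) at 0.30 ± 0.22. The WT/NTZ and WT/PEG ranges of all 3 genes overlapped.

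The difference between the drug effects in KO and in wild-type mice was tested directly. None of the 16 smooth muscle genes passed in edgeR, beside 0.953% of all genes, while 6 had an unadjusted p under 0.05 and DESeq2 called 0. Every one of the 16 differences was above 0, from 0.04 (Actg2) to 0.77 ± 0.26 (Lmod1, adjusted p = 0.137), with a median of 0.45. Smtn had a difference of 0.60 ± 0.21 (edgeR, adjusted p = 0.175). Without KO_46_KO_PEG, 1 smooth muscle gene passed.

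Between genotypes under netazepide, 9 of the 16 smooth muscle genes fell in KO/NTZ against WT/NTZ and none rose, beside 72.4% of all genes that passed, 35.6% that rose and 36.8% that fell. Cald1 (log2 fold change -1.45 ± 0.26), Mylk (-1.26 ± 0.26), Myh11 (-1.16 ± 0.28, adjusted p = 0.000374 in edgeR) and Pgm5 (-0.83 ± 0.17) were lower in every KO/NTZ library than in every WT/NTZ library, as were 12.4% of all genes. Synpo2, Synm, Lmod1 and Tpm1 fell by 1.21, 0.77, 0.53 and 0.46 on the log2 scale. Acta2 was at -0.33 ± 0.15 (edgeR, adjusted p = 0.0483), and no longer passed without any 1 of 13 of the 20 libraries (WT_92_WT_YF, WT_99_WT_YF, WT_103_WT_YF, WT_117_WT_YF, WT_118_WT_YF and WT_171_WT_YF, and KO_24_KO_YF, KO_25_KO_YF, KO_26_KO_YF, KO_27_KO_YF, KO_29_KO_YF, KO_30_KO_YF and KO_37_KO_YF), at -0.34 to -0.28. It was at -0.21 within one range of animal numbers and at -0.20 without WT_92_WT_YF, WT_117_WT_YF and WT_118_WT_YF, and Lmod1 was at -0.43 and -0.33 in these, none of which passed. Des (0.13), Tagln (0.24), Tpm2 (0.06), Smtn (-0.03) and Myl9 (-0.14) did not pass. With the length slope as a covariate 0 of 16 passed, beside 21.1% of all genes.

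Other genes of smooth muscle cells, taken as a list of 35 genes, were counted in the same comparisons, to be read against the 37.2% of all genes that fell and 37.5% that rose in KO/PEG and the 2.97% that rose and 2.6% that fell in KO/NTZ mice. In KO/PEG against WT/PEG 26 fell and 6 rose, with a median log2 fold change of -1.01, and in KO/NTZ against KO/PEG 10 rose and 1 fell, with a median of 0.36. Over these 35 genes the genotype log2 fold change also went with log2 transcript length (Pearson's r -0.61, Spearman's rho -0.64). The list therefore shares the tie between genotype and length slope. Tns1 (-1.75 ± 0.14) and Flna (-1.07 ± 0.13), which tie actin to adhesions and membranes, and Mrvi1 (-1.36 ± 0.17), a target of nitric oxide signalling, had the smallest p in the genotype comparison. In the drug comparison these were Rbpms2 (0.91 ± 0.15), Hspb6 (1.03 ± 0.18) and Jph2 (0.81 ± 0.15). Of 11 myogenic and SRF-linked regulators tested, 5 fell in KO/PEG mice, a share near that of all genes, and 2 rose in KO/NTZ mice. Myocd, encoding myocardin, the coactivator of SRF in smooth muscle, had a log2 fold change of -2.63 ± 0.34 in KO/PEG (adjusted p = 1.07e-08) and then of 0.01 in KO/NTZ against KO/PEG. Srf itself was at 0.25 (adjusted p = 0.0547) in the first and at 0.43 ± 0.12 (adjusted p = 0.0231) in the second of these comparisons, all in edgeR. Barx1, a stomach mesenchyme factor, rose by 0.86 ± 0.14 in KO/NTZ mice.

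Of the markers of other cells of the stomach wall, those of enteric neurons and glia fell and rose in the same comparisons as the smooth muscle genes. All 13 tested genes of enteric neurons and glia fell in KO/PEG mice, among them Nos1 (-2.33 ± 0.23) and Sox10 (-1.95 ± 0.21), and 5 of them rose in KO/NTZ mice. Their summed level was 73.8 to 112 CPM in WT/PEG, 18.2 to 62.8 CPM in KO/PEG and 31.4 to 69.0 CPM in KO/NTZ libraries. Kit and Etv1, 2 of 4 tested genes of the pacemaker cells (interstitial cells of Cajal), fell by 1.71 and 1.81 on the log2 scale in KO/PEG mice, and 0 of 4 passed in KO/NTZ mice. Ano1 and Prkcq of the same list did not fall with them. Ano1 averaged 74.9 CPM in WT/PEG and 77.2 CPM in KO/PEG mice, and Prkcq 2.82 and 2.76 CPM. The counts of the other lists are to be read against the 37.2% of all genes that fell and 37.5% that rose in KO/PEG mice. Of the genes of pericytes 4 of 8 fell and 3 rose, of endothelium 4 of 8 fell and 3 rose, of fibroblasts 5 of 8 fell, of mesothelium 2 of 3 rose, and of fat cells 2 of 6 fell. Of the genes of glandular epithelium 4 of 7 rose, 2 fell, and Epcam was at 1.58 ± 0.12. Of exocrine pancreas genes 4 of 6 fell and 2 rose. In KO/NTZ against KO/PEG 1 rose and 0 fell of pericytes, 1 and 3 of endothelium, 1 and 2 of fibroblasts, 0 and 1 of mesothelium, 0 and 1 of exocrine pancreas, and 0 and 0 of fat cells and of glandular epithelium, beside 2.97% of all genes that rose and 2.6% that fell. The part of tissue makeup in the smooth muscle results was not tested.

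Tpm1 was also read by transcript, because its transcripts differ in their first, second and middle exons. It lies on the minus strand (chr9:67022590-67049406), and 15 of its 21 transcripts passed the filter on low counts. Transcripts that begin at the upstream first exon made up 78.0% ± 2.72 (SD, n = 11) of Tpm1 counts in WT/PEG and 75.4% ± 3.58 (n = 9) in WT/NTZ mice. They made up 55.3% ± 15.8 (n = 13) in KO/PEG and 47.3% ± 13.3 (n = 11) in KO/NTZ mice. Transcripts with the internal first exon made up 21.7%, 24.5%, 44.7% and 52.7% in this order. In CPM the internal class averaged 186, 224, 237 and 320.1, and the upstream class 674, 691, 334 and 316. The shift in share in KO mice thus came with lower mean upstream counts and higher mean internal counts.

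Joins between exons at which Tpm1-213, Tpm1-214, Tpm1-218 and Tpm1-220 differ are shown, because reads across a join help to tell transcripts apart. Tpm1-220 differs further, as it begins at the internal first exon. Lower case gives the last 15 bases of the upstream exon and capitals the first 15 of the downstream exon, on the minus strand of GRCm38:
Tpm1-214 from the first of the second-exon pair: gagaccgccgccaagGCTGAAGCTGACGTA
Tpm1-213 from the second of the pair: aaaaaggccacagatGCTGAAGCTGACGTA
Tpm1-213 into the exon that Tpm1-218 lacks: agatgagagtgagagAGGCATGAAAGTCAT
Tpm1-218 across the lacking exon: agatgagagtgagagGTGGCCCGTAAGCTG
Tpm1-220 across another exon: aagctgcgggaaaccAGGCATGAAAGTCAT
Tpm1-218 lacks a whole exon (chr9:67033876-67033993) and Tpm1-220 one of 134 bases (chr9:67035995-67036128), and both are annotated as targets of nonsense-mediated decay. The join of Tpm1-218 and that of Tpm1-220 each occur in 1 Tpm1 transcript, whereas the join of Tpm1-213 into the exon that Tpm1-218 lacks occurs in 18. The other join of Tpm1-213 occurs in 11 and the join of Tpm1-214 in 2, so neither marks a single transcript.

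Tpm1-214 was the most abundant form in WT/PEG mice, at 236.5 to 447 CPM (median 295), and ran from 0 to 333 CPM (median 134) in KO/PEG and from 0 to 179 CPM (median 99.02) in KO/NTZ mice. Its log2 fold change in KO/PEG against WT/PEG was -1.38 ± 0.71 and did not pass (edgeR, adjusted p = 0.0981). Tpm1-213 ran from 64.1 to 177 CPM (median 114.5) in WT/PEG mice and was under 3 CPM in 9 of 13 KO/PEG and 11 of 11 KO/NTZ libraries. It fell in KO/PEG mice by 3.07 ± 0.92 on the log2 scale (edgeR, adjusted p = 0.00478). The decay-annotated Tpm1-218 went the other way, from 0 to 50.2 CPM (median 10.4) in WT/PEG to 58.3 to 143.7 CPM (median 84.1) in KO/PEG mice, without overlap of the ranges. It rose by 2.46 ± 0.58 on the log2 scale (edgeR, adjusted p = 0.000486). Tpm1-220 rose by 3.57 ± 1.04 (edgeR, adjusted p = 0.00369). It ran from 0 to 27.8 CPM (median 0.0911) in WT/PEG and from 0.0812 to 127 CPM (median 72.2) in KO/PEG mice, so the ranges overlapped. As 7 of 11 WT/PEG libraries were under 3 CPM, the fitted size of this rise rests on values near 0. In all 2 Tpm1 transcripts rose and 9 fell in this comparison, beside 53.5% of all transcripts tested that passed, 26.5% that rose and 27% that fell. With the length slope of the libraries as a covariate 0 Tpm1 transcripts rose and 1 fell. The rises of Tpm1-218 and Tpm1-220 thus no longer passed, and genotype and slope cannot be told apart here either.

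Together Tpm1-213, Tpm1-214, Tpm1-218 and Tpm1-220 held a similar share of Tpm1 in 3 groups, with means of 53.1% in WT/PEG, 49.5% in WT/NTZ and 51.6% in KO/PEG mice, and 40.5% in KO/NTZ mice. Within this set Tpm1-218 and Tpm1-220 held 2.47%, 11.4%, 30.6% and 28.8% of Tpm1 counts in vehicle-treated and drug-treated wild-type mice and in KO/PEG and KO/NTZ mice, in this order. These values rest on how estimated counts were shared among transcripts. Of the stretches of 31 bases (the default word of kallisto, which assigned the reads), Tpm1-211, Tpm1-213, Tpm1-214 and Tpm1-215 had none of their own, Tpm1-218 had 26 and Tpm1-220 had 30.

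Wild-type mice under netazepide differed among themselves in these forms. Tpm1-213 was at 80.7 to 107.6 CPM in 5 WT/NTZ libraries, at 12.3 CPM in WT_103_WT_YF, at 2.42 CPM in WT_92_WT_YF, at 0.339 CPM in WT_117_WT_YF and at 0.188 CPM in WT_118_WT_YF. Tpm1-218 was at 25.1 to 54.2 CPM in those 5 libraries and at 97.2 to 147.8 CPM in the other 4. No Tpm1 transcript passed in WT/NTZ against WT/PEG in edgeR, beside 0.195% of all transcripts, while 1 had an unadjusted p under 0.05 and DESeq2 called 1. Tpm1-218 was the one, with a log2 fold change of 2.25 ± 0.61 (edgeR, adjusted p = 0.135).

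Among KO mice 1 Tpm1 transcript rose and 2 fell in KO/NTZ against KO/PEG, beside 2.56% of all transcripts that passed, 0.666% that rose and 1.9% that fell. Tpm1-211, the main form with the internal first exon, ran from 106 to 255 CPM (median 141) in KO/PEG and from 174 to 264 CPM (median 190.0) in KO/NTZ mice, and rose by 0.48 ± 0.12 on the log2 scale (edgeR, adjusted p = 0.026). Tpm1-213 and Tpm1-210 passed in the lower direction (edgeR, adjusted p = 0.000939 and 0.00154). No fold is given for these, as Tpm1-210 was at 0 in every KO/NTZ library and Tpm1-213 reached 0.077 CPM in the highest. Tpm1-215, the second most abundant form in WT/PEG mice (median 218.5 CPM), fell in KO/PEG mice (-0.98 ± 0.36, adjusted p = 0.0191 in edgeR) and did not pass in KO/NTZ against KO/PEG (0.44). Between genotypes under netazepide 1 Tpm1 transcript rose and 9 fell, beside 56.8% of all transcripts that passed, 24.6% that rose and 32.2% that fell, and Tpm1-214 was among the latter (-1.83 ± 0.78, adjusted p = 0.0433 in edgeR). Of the other tested forms, Tpm1-201, Tpm1-207, Tpm1-209, Tpm1-217 and Tpm1-221, with means of 2.49 to 13.6 CPM in WT/PEG mice, fell in both genotype comparisons, Tpm1-216 fell in the vehicle groups, Tpm1-205 fell under netazepide and Tpm1-212 rose there. For the difference between the drug effects in KO and in wild-type mice Tpm1-210 was the only Tpm1 transcript that passed in edgeR, beside 0.322% of all transcripts.

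**Figure D4:**
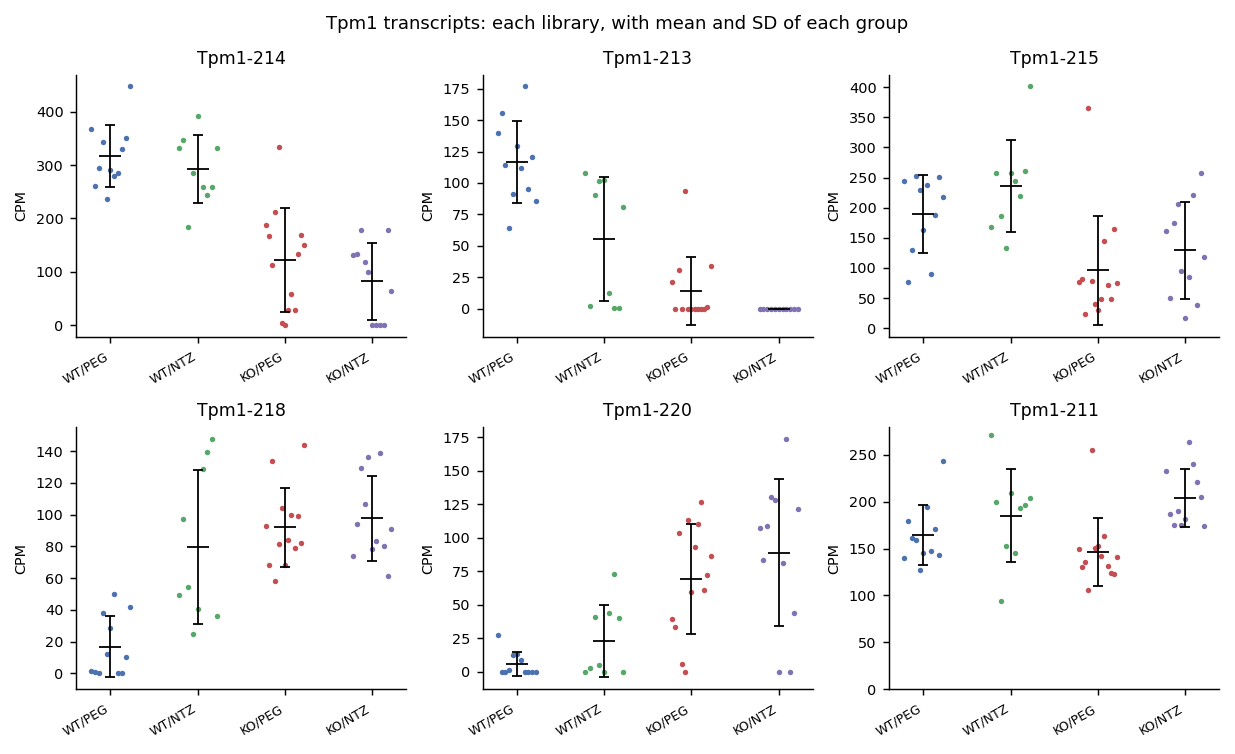
Levels of 6 Tpm1 transcripts in each library, in CPM on linear axes, with points for libraries and the mean and SD of each group. Tpm1-213 falls to near 0 in KO/NTZ mice and in 3 WT/NTZ libraries, Tpm1-218 is at 58.3 CPM or more in every KO library, and Tpm1-211 stays at 94.4 CPM or more in every library.

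Skeletal muscle genes were high in 3 libraries. In WT_92_WT_YF, WT_117_WT_YF and WT_118_WT_YF the genes of fast skeletal fibres were high, and in the other 41 libraries most were at the floor. Acta1 (chr8:123891769-123894751), the skeletal alpha actin, was at 26.2, 80.4 and 31.2 CPM in these 3 libraries, at 0 to 0.246 CPM in the other 6 WT/NTZ libraries and at 6.21 CPM at most elsewhere. The fast myosin heavy chain Myh1 was at 7.53, 29.5 and 7.54 CPM against 0.331 CPM at most elsewhere. The fast troponin C gene Tnnc2 was at 4.57, 16.2 and 7.67 CPM against 0.345 CPM at most, and the oxygen store Mb, encoding myoglobin, at 9.69, 15.5 and 7.48 CPM against 0.486 CPM at most. In all of these WT_117_WT_YF was the highest and the 3 libraries did not overlap with the rest.

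This held for 12 of the 16 skeletal muscle genes, each above every other library in all 3, which describes how these libraries were picked out and is not a test. Of the 7 tested skeletal muscle genes it held for 4 (Acta1, Mylpf, Tnnt3 and Tnnt1), beside 15 of all genes tested, or 0.101%. Over all 31414 gene names it held for 48, or 0.153%. The exceptions among the 16 were Ckm, Tnni2, Actn2 and Actn3. Summed over all 16 skeletal muscle genes, the 3 libraries were at 116 to 291 CPM and the other 41 at 17.4 to 82.9 CPM. Without Ckm, Tnni2, Actn2, Mylpf, Tnnt1 and Actn3 these sums were 66.6 to 190.2 CPM and 0.826 to 6.90 CPM. Each of the 10 genes left was above every other library in all 3, so this gap describes the chosen genes and is not a test. The smooth muscle sums of the 3 libraries, 7383 to 8006 CPM, were inside the range of the other libraries. Of the wider list of 28 skeletal muscle genes 12 were above every other library in all 3, among them the calcium pump Atp2a1 (this gene and the next 4 were named after their values were seen) at 5.29 to 16.2 CPM against 0.381 CPM at most elsewhere. Of the 16 slow skeletal and heart genes 2 were above every other library in all 3, Myl3 at 3.53 to 10.8 CPM against 0.112 CPM at most elsewhere and Csrp3 at 0.404 to 4.09 CPM against 0 in the other 41, while the heart genes Myl2 and Nppa reached 0.135 and 0.114 CPM in the 3. The summed markers of squamous epithelium, which lines the forestomach and oesophagus, were at 1110 to 5861 CPM in the 3 libraries and at 5.01 to 2838 CPM in the other 6 WT/NTZ libraries. Their part in the skeletal muscle values was not tested.

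Acta1 led this group of genes, and its promoter (chr8:123894726-123895025, minus strand) is shown because its CArG box, in capitals, began 73 bases before the start:
Acta1 promoter: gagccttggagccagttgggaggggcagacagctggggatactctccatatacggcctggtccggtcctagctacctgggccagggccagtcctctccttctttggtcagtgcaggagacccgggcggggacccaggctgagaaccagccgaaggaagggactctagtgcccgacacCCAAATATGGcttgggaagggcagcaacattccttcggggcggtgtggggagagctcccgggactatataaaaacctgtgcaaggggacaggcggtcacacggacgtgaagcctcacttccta
Myh1, Myh2 and Myh4 share 37.9%, 32.8% and 30.4% of their stretches of 31 bases with other genes, so counts may have been split among these neighbouring myosins. Acta1 shared 4.24%, mostly with the cytoplasmic actin Actb.

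**Figure D5:**
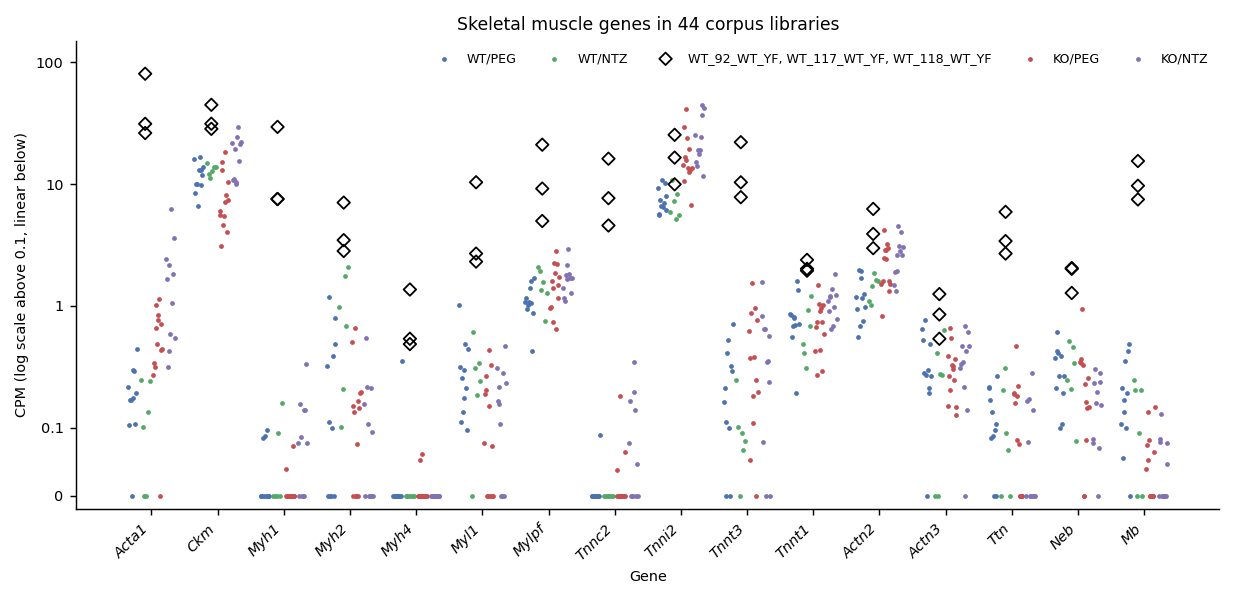
Levels of the 16 skeletal muscle genes in each library in CPM, on an axis that is linear up to 0.1 and logarithmic above, with points coloured by group and WT_92_WT_YF, WT_117_WT_YF and WT_118_WT_YF as open diamonds. The diamonds lie above all other points for genes such as Acta1, Myh1, Tnnc2 and Mb and among them for Ckm and Tnni2.

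Netazepide in wild-type mice was accompanied by 3 skeletal muscle genes of 7 tested that rose, beside 1.03% of all genes, and these rested on the 3 libraries. Acta1 ran from 0 to 0.446 CPM (median 0.176) in WT/PEG and from 0 to 80.4 CPM (median 0.240) in WT/NTZ mice, so the medians were both at the floor. The log2 fold changes were 6.18 ± 0.96 for Acta1 (adjusted p = 0.00067), 4.12 ± 0.86 for the fast troponin T gene Tnnt3 (adjusted p = 0.00704) and 2.11 ± 0.40 for the fast light chain Mylpf (adjusted p = 0.00363) in edgeR. Without the 3 libraries none of the 7 passed, beside 0.066% of all genes, and the values were -0.69, -1.34 and 0.40. Tnnt3 also lost the call without WT_117_WT_YF alone (3.18). Ckm, the creatine kinase of muscle, ran from 6.66 to 16.6 CPM (median 11.96) in WT/PEG and from 11.1 to 44.7 CPM (median 13.9) in WT/NTZ mice and did not pass (0.78 ± 0.27, adjusted p = 0.255 in edgeR).

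In KO/PEG against WT/PEG 2 of the 7 tested skeletal muscle genes rose and none fell, beside the 37.5% of all genes that rose. Tnni2 (chr7:142441808-142444410), the fast troponin I gene, ran from 5.59 to 10.8 CPM (median 6.99) in WT/PEG and from 6.73 to 41.3 CPM (median 14.4) in KO/PEG mice, where 11 of 13 libraries were above every WT/PEG library. It rose 2.35-fold (log2 fold change 1.23 ± 0.26, adjusted p = 5.85e-05 in edgeR). Actn2, the alpha-actinin of the Z disc, ran from 0.560 to 1.96 CPM and from 0.828 to 4.19 CPM in these groups, and rose by 0.90 ± 0.28 on the log2 scale (edgeR, adjusted p = 0.00389). Neither gene was accompanied by Myh1 or Tnnc2, which stayed at 0.184 CPM or less in KO/PEG libraries. Tnnt3 (0.89 ± 0.85, adjusted p = 0.344) and Mylpf (0.44 ± 0.37, adjusted p = 0.279) were above 0 and did not pass in edgeR. Acta1 was above the WT/PEG median, itself at the floor, in 12 of 13 KO/PEG libraries. With the length slope as a covariate Tnni2 (0.17) and Actn2 (0.18) no longer passed, and Mylpf passed in the lower direction (-1.63, adjusted p = 0.0246 in edgeR). Acta1 was at 1.38 ± 0.99 (adjusted p = 0.205), with 0 to 1.13 CPM in KO/PEG mice, and Ckm at -0.52 ± 0.25 (adjusted p = 0.0627) in edgeR. Without the 3 WT/NTZ libraries in the fit, Acta1 (1.42, adjusted p = 0.00858) and Ckm (-0.50, adjusted p = 0.0419) passed as well in edgeR, beside 74.2% of all genes. Ckm also passed without KO_111_KO_PEG (-0.65), KO_46_KO_PEG (-0.62), KO_52_KO_PEG (-0.59) or WT_130_WT_PEG (-0.58).

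Between the KO groups Ckm was the only skeletal muscle gene of 7 that rose in KO/NTZ mice, and none fell, beside the 2.97% of all genes that rose. Ckm (chr7:19404776-19422841) ran from 3.12 to 18.5 CPM (median 7.09) in KO/PEG and from 9.985 to 29.5 CPM (median 19.3) in KO/NTZ mice. All 11 KO/NTZ libraries were above the KO/PEG median and 6 above every KO/PEG library, a 2.16-fold rise (log2 fold change 1.11 ± 0.25, adjusted p = 0.00488 in edgeR). Acta1 ran from 0.314 to 6.21 CPM (median 1.66) in KO/NTZ mice, with a log2 fold change of 1.75 ± 0.78 (adjusted p = 0.156), and passed without the 3 WT/NTZ libraries (1.74, adjusted p = 0.0066) in edgeR, beside 5.50% of all genes. Tnni2 was at 0.46 and Actn2 at 0.23.

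Comparisons that involve WT/NTZ turned with the 3 libraries. In KO/NTZ against WT/NTZ Tnni2 rose (1.21 ± 0.28, adjusted p = 0.000236 in edgeR), while Acta1 (-3.05 ± 0.78), Tnnt3 (-3.16 ± 0.79) and Mylpf (-1.54 ± 0.39) fell. Within one range of animal numbers Acta1 (-1.36), Tnnt3 (-1.50) and Mylpf (-0.48) did not pass. Without the 3 libraries Acta1 was at 3.85, Tnnt3 at 2.30 and Tnni2 at 1.78, and all 3 passed in the higher direction, as did Actn2 (0.86), beside 69.3% of all genes, whereas Mylpf was at 0.19 and did not pass. For the difference between the drug effects in KO and in wild-type mice none of the 7 passed in edgeR, beside 0.953% of all genes. In edgeR 3 had an unadjusted p under 0.05 and DESeq2 called 3, beside 1.82% of all genes in DESeq2. These were Acta1 (-4.42, adjusted p = 0.0689 in edgeR), Mylpf (-1.98, adjusted p = 0.0556) and Tnnt3 (-4.05, adjusted p = 0.0735), and without the 3 libraries Acta1 was at 2.43. Leaving out WT_86_WT_YF, WT_93_WT_YF, WT_98_WT_YF, WT_99_WT_YF, WT_103_WT_YF or WT_171_WT_YF or KO_32_KO_PEG, KO_46_KO_PEG or KO_111_KO_PEG, 1 at a time, let 1 to 3 of them pass.

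The 9 skeletal muscle genes that were not tested were Myh1, Myh2, Myh4, Myl1, Tnnc2, Actn3, Ttn, Neb and Mb. Outside the 3 libraries their highest level was 2.08 CPM, for the fast oxidative myosin Myh2. Myh4 was at 0 in every KO/NTZ library. The giant sarcomere genes Ttn and Neb reached 0.473 and 0.945 CPM at most outside the 3 libraries. Of the wider skeletal muscle genes 2 of 10 tested rose and 3 fell in KO/PEG mice and 1 rose in KO/NTZ mice, and of the slow skeletal and heart genes 3 of 8 rose and 4 fell and then 1 rose, beside 37.5% of all genes that rose and 37.2% that fell in KO/PEG and 2.97% that rose in KO/NTZ mice. Chrna1 (3.10 ± 0.50) and Cacna1s (3.74 ± 0.64), parts of the acetylcholine receptor and the calcium channel of muscle, rose in KO/PEG mice, and Myom1 fell by 1.16 ± 0.21. Chrna1 reached 0.224 CPM and Cacna1s 0.112 CPM at most in WT/PEG libraries, with medians of 0.743 and 0.673 CPM in KO/PEG mice. The fitted sizes of these 2 rises therefore rest on WT/PEG values at the floor. Among the slow and heart genes Myh6 (1.74 ± 0.18) and Myh7 (1.28 ± 0.15) rose, and Pln, which brakes the calcium pump, fell by 1.96 ± 0.22. Of 12 squamous epithelium genes 1 fell in KO/PEG mice and none passed in the drug comparisons, where in WT/NTZ against WT/PEG 8 had an unadjusted p under 0.05 in edgeR and the median log2 fold change was 2.61.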

How the data were processed

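RNA from 44 samples of gastric corpus was sequenced as single reads from stranded mRNA libraries. Per the labels and the study's methods, the authors assigned reads to transcripts with kallisto 0.42.4 (the submitters' processing notes also name GRCm38, bcl2fastq and sleuth) and deposited one table of estimated counts for 94080 transcripts, which are not normalised and need not be whole. The deposited estimated counts were summed per gene name of GENCODE vM21 (92284 transcripts paired; the other 1796 held 0.351 to 1.333% of a library) and rounded. Genes with low counts were removed with filterByExpr (minimum count 10, minimum total 15), library sizes were scaled by TMM, and all 4 groups entered one edgeR 4.0.16 quasi-likelihood fit (R 4.3.3, limma 3.58.1) with a mean per group and Benjamini-Hochberg adjustment at 0.05. Sleuth was not used, as it needs resampled counts that were not analysed here. Tpm1 was fitted the same way among 30782 transcripts. TPM was computed from annotated lengths, so it shares any length effect. The scripts were tested on simulated data. Alternatives were other scaling, no filter, robust dispersion, DESeq2 1.42.0, only the groups compared, the pair numbered 172 summed, number 110 left out, animals numbered from 100 up or below, and each library left out in turn. Figures were drawn with Python 3.11.15 and matplotlib 3.10.9. Values were given in full for Acta1, Ckm, Acta2, Myh11, Des and Tpm1 and for members that passed, up to the 10 with the smallest p. At most 3 genes were named from each of 14 other lists, by smallest p. Ano1 and Prkcq were named besides, to show other genes of their list. The members and lists were chosen with earlier results of these data known. Depth per library was 6065084 to 21945124 estimated counts.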

Additional observations from a re-analysis of the deposited data

Results flagged for a closer look

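Of 47 sets of values tested for a library that lies far from the rest of its group, 10 held one, and chance gives about 1 in 20. The 10 are not independent, since 8 of them are the same library. WT_117_WT_YF lay far above the other WT/NTZ libraries for Acta1 (80.39 CPM), Myh1 (29.45 CPM), Myh2 (7.05 CPM), Myh4 (1.364 CPM), Myl1 (10.35 CPM), Mylpf (21.04 CPM), Tnnc2 (16.15 CPM) and Tnnt3 (22.06 CPM), all skeletal muscle genes. Among Tpm1 transcripts, Tpm1-212 was high in WT_98_WT_YF (7.57 CPM) and Tpm1-215 in WT_171_WT_YF (401.1 CPM).

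The effect of netazepide differed between KO and wild-type mice for Tpm1-210, with a difference of -5.99 ± 1.34 in log2 fold change (edgeR quasi-likelihood test, adjusted p = 0.0393, beside 0.322% of all transcripts). This transcript was at 0 in all 11 KO/NTZ libraries and under 3 CPM in 12 of 13 KO/PEG libraries, so the fitted size depends on the prior count and is no bound. Leaving out any 1 of 31 of the 44 libraries changed the number of Tpm1 transcripts that passed this test from 1 to 0 or 2.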

How the results depend on the processing

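No paired analysis was possible because the groups compared share fewer than 2 replicate numbers. Each of the 15 counts of genes and Tpm1 transcripts stayed within 1.5 times the reported count with other size factors, with robust dispersion and without the libraries numbered 110. For named genes 486 values kept direction and side of the threshold, 31 kept direction but no longer passed, 7 passed newly and 19 changed sign. Unless the setting itself shows it, the cause was not tested.

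In the planned settings, skeletal genes passing in WT/NTZ against WT/PEG numbered 9 when every gene with a count was kept and 11 within one range of animal numbers. When the other groups were left out of the fit they numbered 0, and only 4 of the 16 were then tested. Of all genes 0.871% passed when every gene with a count was kept, 3.34% within one range of animal numbers and 0 of 13785 without the other groups. In KO/NTZ against WT/NTZ skeletal genes passing numbered 12 with every gene kept and 9 within one range, beside 50% and 63.8% of all genes. In both of these settings all 16 genes were tested, and the one within a range of animal numbers compared fewer samples. Tpm1 transcripts passing were 0 in KO/NTZ against KO/PEG when the other groups were left out, 1 in WT/NTZ against WT/PEG with DESeq2, and 6 in KO/NTZ against WT/NTZ within one range. For the difference of drug effects DESeq2 called 3 skeletal genes, beside 1.82% of all genes, and 2 Tpm1 transcripts. Summing WT_172_WT_PEG_1 and WT_172_WT_PEG_2 left 0 Tpm1 transcripts there. Ckm in KO/NTZ against WT/NTZ was at 0.15 within one range of animal numbers and ran from -0.29 to 0.06 with 1 library left out, changing sign without WT_117_WT_YF. Myh11 in WT/NTZ against WT/PEG ran from -0.09 to 0.00 in the same way, with 0.00 without WT_86_WT_YF.

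Another 2 settings were chosen after seeing the data. Without WT_92_WT_YF, WT_117_WT_YF and WT_118_WT_YF the skeletal counts were 4 in KO/PEG against WT/PEG, 2 in KO/NTZ against KO/PEG and 0 in WT/NTZ against WT/PEG, and 6 Tpm1 transcripts passed in KO/NTZ against WT/NTZ. Signs changed for Acta1 (-0.69) and Tnnt3 (-1.34) in WT/NTZ against WT/PEG, for Acta1 (3.85), Ckm (0.45), Mylpf (0.19) and Tnnt3 (2.30) in KO/NTZ against WT/NTZ, and for Acta1 (2.43) in the difference. With the length slope as a covariate, 1 skeletal gene passed in KO/PEG against WT/PEG (lower, against 2 higher as reported). So did 2 smooth genes and 1 Tpm1 transcript, each lower. In KO/NTZ against WT/NTZ 0 smooth genes and 1 Tpm1 transcript passed with this covariate. In the difference 3 skeletal genes, 1 smooth gene and 2 Tpm1 transcripts passed with it, beside 9.79% of all genes. Signs changed for Acta1 (-0.57), Mylk (0.08), Synm (0.00) and Synpo2 (0.03) in KO/PEG against WT/PEG, for Myh11 (0.35) in WT/NTZ against WT/PEG, and for Myh11 (0.35), Cald1 (0.04), Mylk (0.17), Synpo2 (0.20), Synm (0.30) and Lmod1 (0.07) in KO/NTZ against WT/NTZ.

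Leaving out 1 library at a time gave 2 to 3 skeletal genes, 13 to 15 smooth genes and 11 to 13 Tpm1 transcripts in KO/PEG against WT/PEG, 1, 8 to 10 and 2 to 3 in KO/NTZ against KO/PEG, 2 to 4, 0 and 0 in WT/NTZ against WT/PEG, 3 to 4, 8 to 10 and 7 to 11 in KO/NTZ against WT/NTZ, and 0 to 3, 0 to 1 and 0 to 2 in the difference.

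Limits are the depth, at which a gene under about 0.495 CPM in the shallowest library cannot be told from 0, the near identity of genotype and length slope, and the sharing of counts among Tpm1 transcripts.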
